A study of Drosophila melanogaster with 6 samples.

Results

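The genes described here had higher values than control in wandering larval brains of Drosophila melanogaster under both manipulations of E347 neurons, ablation and activation. A gene was included when the sum over its transcripts was at least 1 FPKM in control in both control tables, at least 10 FPKM in ablation and in activation, and at least 1 higher on the scale log2((manipulation + 1)/(control + 1)) in each manipulation. FPKM are fragment counts scaled to transcript length and library size, so levels can be compared between genes. Of 14012 genes 249 met the rule, and 5979 genes met its level minimums, so the members are 4.16% of the genes that could be chosen by fold alone. The values that chose the members are given as a description without a test.

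The study sequenced RNA from 6 pools of dissected brains, 2 pools per group, and 86 to 100 brains went into each pool. All larvae grew at 25 °C, and their food held 35 g of yeast per liter. In all groups the driver E347-GAL4 was present on the X with a w allele, and GAL4 switches on UAS transgenes in the neurons that the driver marks. In the ablation genotype UAS-ShiDN lay on a yw X chromosome and on the second chromosome. It encodes a dynamin (shibire) protein that blocks the normal one, and the series calls this neuronal ablation. Activation larvae carried a yw X chromosome and UAS-NachBac on the third chromosome, a bacterial sodium channel that makes neurons more excitable. Control larvae carried the driver over w1118 and no UAS transgene. Both manipulations thus share a yw chromosome and the presence of a UAS transgene, and control has neither, so for genes higher in both manipulations the neuronal effect, the yw background and the transgene insertions cannot be told apart. Larvae with a UAS transgene and no driver are not among the groups analysed here.

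Each group has 1 deposited value per table, so the spread between its 2 pools is not known here, and neither is the sequencing depth. Both comparisons use the same control pools, so a low control value raises both changes of a gene at once. Control values are given from the table with ablation, and they were 1.03 times those in the table with activation as a median. The neuron marker elav had 113 FPKM in ablation, 109 FPKM in activation and 97.2 FPKM in control, and the glial marker repo had 30.5, 27.9 and 44.8 FPKM in the same groups. Other glial markers went the other way than repo. Of 12 glial markers at the minimums 7 were above control in each manipulation, with median log2 changes of 0.21 in ablation and 0.08 in activation. The neuroblast marker dpn had 33.8 FPKM in ablation, 46.5 FPKM in activation and 32.5 FPKM in control, so markers of the larval brain were present in every group. Brain samples hold many cell types, and more cells of a type cannot be told apart from more RNA per cell.

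As background, the genes belong to several systems of the larval brain. Peptide hormones are made by small sets of neurosecretory cells and control moulting, feeding and growth. Cytochromes P450 and glutathione S-transferases oxidise and conjugate foreign and internal compounds. The mitochondrial ribosome makes the respiratory chain subunits encoded in mitochondrial DNA. Reaper and grim bind inhibitors of apoptosis and release caspases, and in the larval nervous system such genes are known for the programmed death of neurons and neuroblasts.

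Over the 249 members the median level was 26.7 FPKM in ablation, 23.3 FPKM in activation and 8.84 FPKM in control. Ablation values ran from 10.2 to 5385 FPKM, activation values from 10.1 to 9877 FPKM and control values from 1.37 to 2289.9 FPKM. The median log2 change was 1.30 in ablation and 1.28 in activation, against 0.04 in each comparison over all 5979 genes at the minimums. A log2 change of at least 2 in both manipulations was met by 8 members, and of at least 1.5 by 34. Past the fold in ablation were 7.24% of the genes at the minimums and in activation 6.26%, which included 184 genes in ablation alone and 125 in activation alone. A mirrored rule, with control at 10 FPKM or more, both manipulations at 1 FPKM or more and both changes at -1 or below, gave 167 genes.

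Among the members were 6 peptide hormone genes, each with a control value between 4.52 and 15.5 FPKM. Burs, the alpha subunit of the cuticle-hardening hormone bursicon, had 19.9 FPKM in ablation and 30.8 FPKM in activation, against 4.52 FPKM in control. CCAP, a peptide that drives ecdysis behaviour and is made by neurons that also make bursicon, had 24.1 FPKM in ablation and 22.5 FPKM in activation, against 9.47 FPKM in control. Both were higher in each manipulation, and Burs was highest in activation. Ilp7, a relaxin-like insulin family peptide, had 17.3 FPKM in ablation and 13.6 FPKM in activation, against 4.77 FPKM in control. Dsk, the drosulfakinin precursor known for satiety, had 35.0 FPKM in ablation and 32.4 FPKM in activation, against 15.5 FPKM in control.

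Trissin, a cysteine-rich neuropeptide, had 36.3 FPKM in ablation and 18.9 FPKM in activation, against 6.56 FPKM in control. Gpa2, the alpha subunit of a glycoprotein hormone, had 92.4 FPKM in ablation and 42.5 FPKM in activation, against 12.6 FPKM in control. These genes were higher in ablation than in activation, with log2 differences of 0.87 and 1.07. The subunits that pair with bursicon alpha and Gpa2 did not meet the rule. Pburs had 23.7 FPKM in ablation, 12.2 FPKM in activation and 10.6 FPKM in control, and Gpb5 had 73.0, 65.2 and 39.99 FPKM in the same groups. In the list of neuropeptides and hormones, which does not hold Trissin or Gpa2, 4 of 28 genes at the minimums were members, 14.3% beside 4.16% of all such genes. These 4 had 4.52 to 15.5 FPKM in control, and the rule favours low control values. Members made up 96.1% of all such genes with 1 to 5 FPKM in control, 23.5% with 5 to 10 FPKM and 5.13% with 10 to 20 FPKM. The list's median log2 change was 0.32 in ablation and 0.09 in activation, with 18 of the 28 higher in each comparison. In either comparison 0 of its transcripts passed the authors' test, beside 0.154% of all tested transcripts in ablation and 0% in activation.

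Detoxification genes held the members that differed most between the manipulations. Cyp28d1, a cytochrome P450, had 72.0 FPKM in ablation and 14.6 FPKM in activation, against 4.39 FPKM in control. Cyp28a5, a P450 of the same family, had 41.9 FPKM in ablation and 13.1 FPKM in activation, against 2.70 FPKM in control. Both genes stood in the order ablation, activation, control. The other Cyp28 genes did not follow it: Cyp28d2 had 0.734 FPKM in ablation, 1.62 FPKM in activation and 0.419 FPKM in control, and Cyp28c1 had 1.596, 1.72 and 4.19 FPKM in the same groups. Most midgut markers, and the Lsp and Fbp genes of the fat body, also had higher values in ablation than in activation. The 33 midgut markers found summed to 1915 FPKM in ablation and 19.1 FPKM in activation, against 16.2 FPKM in control, with 21 of the 33 higher in ablation than in activation. The digestive protease gene Jon65Aiv had 405 FPKM in ablation and 1.91 FPKM in activation, against 2.07 FPKM in control, while 8 of the markers were at 0 in ablation, 18 in activation and 21 in control. The 15 fat body markers summed to 664 FPKM in ablation and 290.1 FPKM in activation, against 413 FPKM in control, and 10 of the 15 were higher in ablation than in activation. The Lsp and Fbp genes made up most of the difference in these sums, as with Lsp1gamma at 87.1, 11.6 and 20.8 FPKM in ablation, activation and control, while the fatty acid synthase gene FASN1 had 52.95, 50.2 and 76.5 FPKM in the same groups. The part of these markers in the values of the Cyp28 genes was not tested.

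Of the glutathione S-transferases 4 of 17 at the minimums were members, 23.5% beside 4.16% of all genes at the minimums. These 4 had 3.27 to 7.74 FPKM in control, a level that the rule favours. Among all genes at the minimums, 96.1% with 1 to 5 FPKM in control were members, and 23.5% with 5 to 10 FPKM. GstE6 had 12.1 FPKM in ablation and 19.8 FPKM in activation, against 3.27 FPKM in control. GstD9 had 16.2 FPKM in ablation and 30.5 FPKM in activation, against 7.11 FPKM in control. These enzymes were highest in activation, the reverse of the Cyp28 genes. GstT4 had 25.5 FPKM in ablation and 18.7 FPKM in activation, against 6.37 FPKM in control, and GstT2 had 17.4, 17.6 and 7.74 FPKM in the same groups. Of the 17 genes 10 were above control in ablation and 11 in activation. Among the non-members GstO3 had 23.3 FPKM in ablation, 20.97 FPKM in activation and 10.9 FPKM in control, and GstD1 had 318, 320.4 and 481 FPKM in the same groups. The Gst median log2 change was 0.19 in ablation and 0.51 in activation. In the detoxification list, which holds 3 of these members and Cyp28a5, 11 genes were at the minimums, 7 were higher in ablation and 6 in activation. Against control 0 of its transcripts passed the authors' test, beside 0.154% of all tested transcripts in ablation and 0% in activation.

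**Figure D1:**
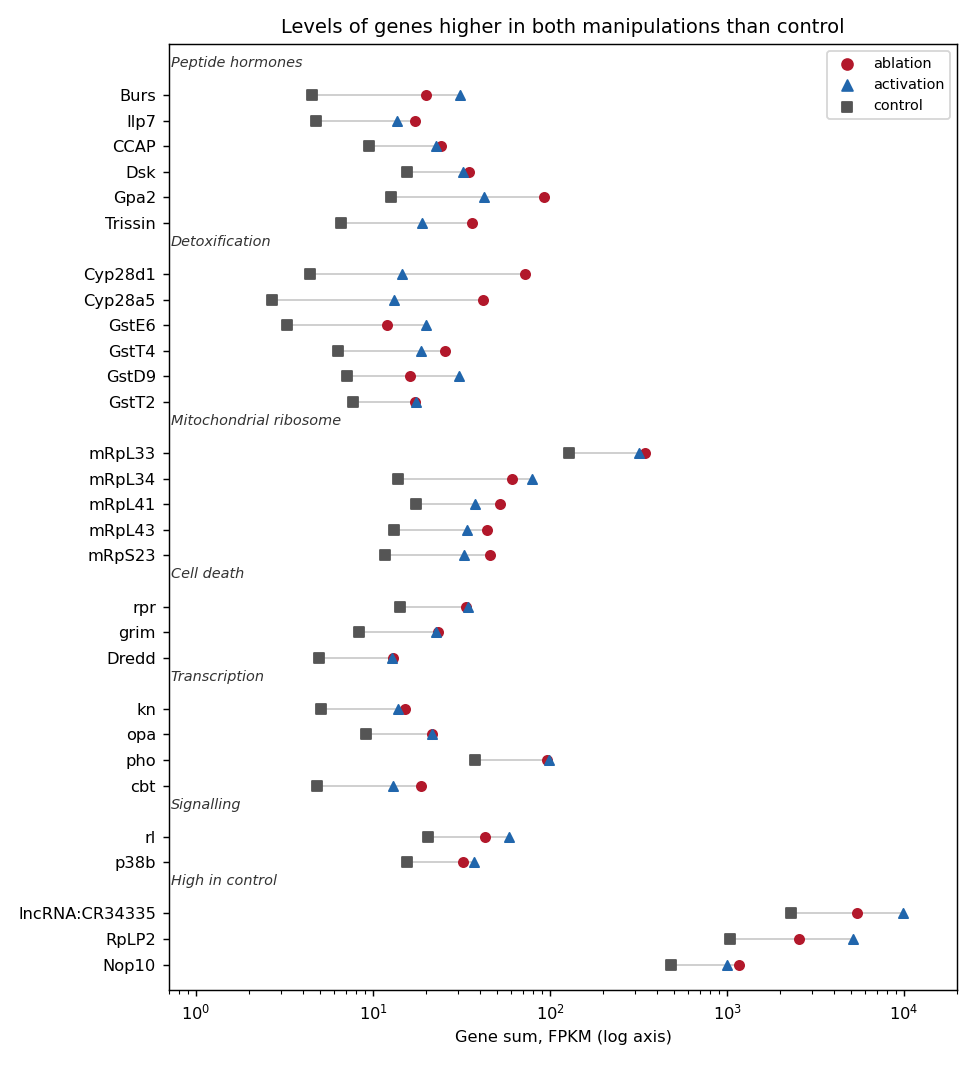
Gene sums in FPKM (log axis) of 29 genes higher in both manipulations, grouped by role, in ablation (circles), activation (triangles) and control (squares), 1 authors' value per group and no error bar. Control is lowest in every gene shown, which the rule requires. Ablation and activation change places, as Cyp28d1 at 72.0 and 14.6 FPKM and GstD9 at 16.2 and 30.5 FPKM show.

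Of the mitochondrial ribosomal protein genes 5 of 70 at the minimums were members, 7.14% beside 4.16% of all genes at the minimums. The highest of them, mRpL33, had 345 FPKM in ablation and 317 FPKM in activation, against 127 FPKM in control. The largest change was that of mRpL34, with 60.7 FPKM in ablation and 78.8 FPKM in activation, against 13.8 FPKM in control. The other members, mRpL41, mRpL43 and mRpS23, had 43.8 to 52.4 FPKM in ablation, 32.7 to 37.6 FPKM in activation and 11.7 to 17.5 FPKM in control. All of them but mRpL33 lay between 10 and 20 FPKM in control, where 5.13% of genes at the minimums were members. The median log2 change over the 70 genes was 0.11 in ablation and -0.12 in activation, with 42 and 30 genes above control.

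A further 10 members act in mitochondria, with control values from 4.14 to 79.0 FPKM. NdufV3, a subunit of respiratory complex I, had 51.2 FPKM in ablation and 74.5 FPKM in activation, against 23.2 FPKM in control, and CIA30, a complex I assembly factor, had 13.6, 15.3 and 5.71 FPKM in the same groups. CPT2, which passes long-chain fatty acids into mitochondria, had 16.9 FPKM in ablation and 11.5 FPKM in activation, against 4.14 FPKM in control. The frataxin gene fh, needed for iron-sulphur clusters, had 16.9 FPKM in ablation and 12.6 FPKM in activation, against 5.12 FPKM in control. The respiratory chain list, which does not hold NdufV3, had 0 members among 60 genes at the minimums, and its median log2 changes were -0.03 in ablation and -0.14 in activation. Pex2, which helps to import proteins into peroxisomes, had 16.96 FPKM in ablation and 14.7 FPKM in activation, against 4.65 FPKM in control.

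The cell death genes reaper and grim, which lie next to each other among the genes at the minimums on 3L, were both members. The reaper gene rpr had 33.6 FPKM in ablation and 34.5 FPKM in activation, against 14.2 FPKM in control. The grim gene had 23.4 FPKM in ablation and 22.7 FPKM in activation, against 8.31 FPKM in control. Their levels in ablation and activation were nearly equal. Of the related death genes, skl had 22.04 FPKM in ablation, 32.3 FPKM in activation and 19.8 FPKM in control, and hid had 3.84, 6.41 and 4.21 FPKM in the same groups, so neither met the rule. Diap1, the inhibitor these proteins bind, had 329 FPKM in ablation, 372 FPKM in activation and 297 FPKM in control. Dredd, a caspase of the immune deficiency pathway, had 12.9 FPKM in ablation and 12.9 FPKM in activation, against 4.97 FPKM in control. These equal sums came from different transcripts. RD had 12.9 FPKM in ablation and 5.69 FPKM in activation, against 4.97 FPKM in control. RE had 0.00554, 2.70 and 0.00278 FPKM and RF 0, 4.48 and 0 FPKM in the same groups. No transcript of rpr, grim or Dredd passed the authors' test against control, beside 0.154% of all tested transcripts in ablation and 0% in activation.

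Among 10 members of the cell cycle and genome upkeep was the securin gene pim, with 19.5 FPKM in ablation and 21.6 FPKM in activation, against 9.24 FPKM in control. Cks30A, a partner of cyclin-dependent kinases, had 77.1 FPKM in ablation and 79.2 FPKM in activation, against 32.3 FPKM in control. Ogg1, which removes oxidised guanine from DNA, had 12.7 FPKM in ablation and 11.3 FPKM in activation, against 3.72 FPKM in control. The log2 changes of the 10 genes ran from 1.00 to 1.54 in ablation and from 1.01 to 1.41 in activation. Their medians were 1.30 in ablation and 1.19 in activation, beside 1.30 and 1.28 over all members. The telomere cap genes cav and ver were both in this group, with 22.9 and 36.8 FPKM in ablation, 20.6 and 27.0 FPKM in activation and 8.14 and 12.2 FPKM in control.

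Transcription and chromatin genes gave 9 members that were grouped by role. The gene kn encodes the Collier factor, which sets the identity of peptide and sensory neurons, and had 15.2 FPKM in ablation and 13.8 FPKM in activation, against 5.09 FPKM in control. The Zic factor opa had 21.5 FPKM in ablation and 21.6 FPKM in activation, against 9.14 FPKM in control. The Polycomb recruiter pho had 95.7 FPKM in ablation and 99.1 FPKM in activation, against 37.8 FPKM in control. All these sums were close to equal in the manipulations, but the transcripts of kn were not. RA of kn had 8.28 FPKM in ablation and 2.36 FPKM in activation, against 1.66 FPKM in control. RB of kn had 6.90, 11.4 and 3.43 FPKM in the same groups. Ing3 and Gas41, which belong to histone-modifying complexes, had 17.2 and 78.7 FPKM in ablation and 17.9 and 69.3 FPKM in activation, against 4.90 and 29.9 FPKM in control.

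Among signalling members was rl, the ERK kinase, with 42.7 FPKM in ablation and 58.5 FPKM in activation, against 20.3 FPKM in control. The stress kinase p38b had 32.2 FPKM in ablation and 37.3 FPKM in activation, against 15.5 FPKM in control. Both had their highest value in activation. The main control transcript of rl, RB, had 14.5 FPKM in ablation and 39.6 FPKM in activation, against 13.8 FPKM in control. RA of rl had 16.9, 14.6 and 4.79 FPKM and RE 11.3, 0 and 1.72 FPKM in the same groups. The membrane traffic members, 9 in number, had log2 changes from 1.04 to 1.53 in ablation and from 1.03 to 1.28 in activation. Sec10, a subunit of the exocyst that tethers vesicles, had 36.04 FPKM in ablation and 31.7 FPKM in activation, against 13.6 FPKM in control, and Amph, the amphiphysin that binds dynamin in other animals, had 16.2, 17.6 and 6.996 FPKM in the same groups. The shi sum, the dynamin gene itself, was 74.4 FPKM in ablation, 74.0 FPKM in activation and 69.5 FPKM in control, and shi was not a member. PIG-Q and PIG-X, which build the lipid anchor of surface proteins, had 23.4 and 18.7 FPKM in ablation and 25.4 and 20.1 FPKM in activation, against 10.03 and 8.34 FPKM in control. Teh2, a homologue of the sodium channel subunit gene tipE, had 26.7 FPKM in ablation and 13.8 FPKM in activation, against 3.13 FPKM in control. Its deposited locus holds 6 genes. Its relatives did not move together, and none of them was a member. Teh3 had 4.27, 3.56 and 25.3 FPKM and tipE 8.81, 7.17 and 10.8 FPKM in the same groups, both below control. Teh4 had 20.2, 15.3 and 7.64 FPKM and Teh1 1.75, 2.33 and 1.06 FPKM, both above control. The sodium channel gene para had 4.35 FPKM in ablation, 2.90 FPKM in activation and 2.08 FPKM in control. The design genes w and y were not members either, with 2.83 and 0.639 FPKM in ablation, 25.9 and 0.585 FPKM in activation and 3.55 and 0.218 FPKM in control.

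The members with the highest control values were a noncoding RNA and a ribosomal protein gene. The noncoding lncRNA:CR34335 had 5385 FPKM in ablation and 9877 FPKM in activation, against 2289.9 FPKM in control. RpLP2, an acidic protein of the ribosomal stalk, had 2549 FPKM in ablation and 5110.0 FPKM in activation, against 1034.5 FPKM in control. Both were highest in activation. RpLP2 has 2 transcripts in the tables, and neither was tested by the authors, because one had the status LOWDATA and the other NOTEST in both control tables. It was the only member among 79 genes of the cytoplasmic ribosomal protein list, whose median log2 change was -0.09 in ablation and -0.02 in activation, and its stalk partners RpLP0 and RpLP1 had changes of -0.02 and 0.20 in ablation and -0.10 and 0.60 in activation. RpS5b, a member that this list does not hold, is a paralogue of RpS5a, and reads of the 2 genes can be hard to separate. It had 27.7 FPKM in ablation and 29.8 FPKM in activation, against 12.7 FPKM in control. Nop10, a small protein of the particles that modify ribosomal RNA, had 1167 FPKM in ablation and 994 FPKM in activation, against 480.1 FPKM in control. The other members with high control values, CG40045, CG34200, Pfdn1 of the prefoldin chaperone and the acyl-CoA binding protein gene Acbp1, had 188 to 619 FPKM in ablation, 186 to 673 FPKM in activation and 93.0 to 288 FPKM in control.

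Ranked by the smaller of their changes, the leading members were mostly genes with little or no functional annotation and low control values. CG13707 had 54.9 FPKM in ablation and 47.0 FPKM in activation, against 5.27 FPKM in control. CG34242 had 17.1 FPKM in ablation and 17.7 FPKM in activation, against 1.43 FPKM in control. CG11279 had 79.7 FPKM in ablation and 84.8 FPKM in activation, against 10.3 FPKM in control. In all 3 the manipulated values lay close together and far from control. CG32544, CG11825, CG34293, CG13123 and CG34008 followed, with 12.3 to 47.8 FPKM in ablation, 12.6 to 55.1 FPKM in activation and 1.37 to 10.4 FPKM in control. The cuticle protein gene Cpr51A had 14.4 FPKM in ablation and 11.6 FPKM in activation, against 1.39 FPKM in control, and Mpp6, a cofactor of the RNA exosome, had 17.5, 15.5 and 3.22 FPKM in the same groups. In dm3, CG13707 lies on 3L from 4838079 to 4838742, CG34242 on 3L from 12527096 to 12527503, and CG11279 on 3L from 13040124 to 13040623.

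The 22 gene lists hold 295 entries at the minimums, and 12 of them were members, a share close to the 4.16% of all genes at the minimums. The lists of other tissues have few genes at the minimums, so their counts of members say little. Mdr65, an efflux pump of the barrier glia, was the 1 member among 12 genes of the glia list at the minimums, with 65.3 FPKM in ablation and 69.2 FPKM in activation, against 29.7 FPKM in control. Gasp, a chitin-binding protein and the 1 member among 5 such genes of the cuticle and trachea list, had 10.2 FPKM in ablation and 13.3 FPKM in activation, against 3.02 FPKM in control. It stood apart from its list, whose summed level was 506 FPKM in ablation and 274 FPKM in activation, against 1594 FPKM in control, and 12 of its 26 genes were at 0 in control. The lipase gene bmm was the 1 member among 6 such genes of the fat body list, with 16.3 FPKM in ablation and 18.8 FPKM in activation, against 6.99 FPKM in control. The place of bmm among the members rests on its RB transcript, at 10.8 FPKM in ablation and 12.1 FPKM in activation, against 0.0550 FPKM in control, while RA had 5.48, 6.68 and 6.93 FPKM in the same groups. The midgut, male germline and immune effector lists had 0 genes at the minimums, so none could be a member. With 2 to 4 genes at the minimums each, the muscle, haemocyte, salivary gland, imaginal disc, chemosensory and histone lists held 0 members. The neuron list held 0 members among 15 genes, the neuroblast list 0 among 13, the stress list 0 among 15, the glycolysis list 0 among 14 and the hormone response list 0 among 11, counts too small to set apart from the 4.16% of all genes. The activity-regulated genes, which neurons switch on when they fire, had 7 genes at the minimums and 0 members. Their median log2 changes were -0.67 in ablation and -0.63 in activation, but 1 of the 7 was above control in ablation and 3 in activation. Arc1 had 39.5 FPKM in ablation and 105 FPKM in activation, against 44.1 FPKM in control, while Jra had 59.0, 58.7 and 94.2 FPKM in the same groups.

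The authors' direct test of ablation against activation was not used by the rule, although its FPKM come from the same pools, with medians of 0.985 and 1.01 times the values used there. Cyp28d1 was the 1 member called, higher in ablation (log2 fold change 2.27, q = 0.0163 in the authors' deposited table, Cuffdiff). Of the 308 tested transcripts of the members 1 was called, beside 0.37% of all tested transcripts of that table, 0.25% as higher and 0.121% as lower in ablation. The unadjusted p of Cyp28d1 was 5e-05 in the authors' deposited table, the smallest value there, which 38 transcripts share. The same table called 5 midgut and 5 fat body marker transcripts as higher in ablation, with the summed levels given beside the Cyp28 genes. Cyp28a5 had a log2 fold change of 1.65 and q = 0.0731 in the authors' deposited table and did not pass. The noncoding lncRNA:CR34335 had a log2 fold change of -0.91 and q = 0.285 in the authors' deposited table. An unadjusted p under 0.05 was reached by 7 of the 308 transcripts, 2.27%, beside 3.21% of all tested transcripts. Of these 7, 5 were higher in ablation, beside 1.53%, and 2 were lower, beside 1.68%.

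The rule puts the same fold threshold over the same control on both manipulations, so it favours members with similar values in them, and their differences by gene sums are a description. The median log2 difference of ablation over activation was 0.01 (0.00561), with 129 members higher and 120 lower in ablation, beside 0.00 (0.00240) over the other 5730 genes at the minimums. Within 0.5 on the log2 scale in either direction lay 223 members, 89.6%, beside 91.8% of the other genes. A difference of 1 or more as higher in ablation was found in 5 members, beside 0.452% of genes at the minimums: Cyp28d1, Cyp28a5, Gpa2, CG13689 and CG7888. One of 1 or more as lower in ablation was found in 1 member, RpLP2, beside 0.368% of genes at the minimums. CG13689 had 42.9 FPKM in ablation and 19.5 FPKM in activation, against 7.91 FPKM in control, and CG7888 had 45.8, 20.9 and 8.48 FPKM in the same groups. Within 1 on the log2 scale lay 97.6% of the members and 99.2% of the other genes.

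**Figure D2:**
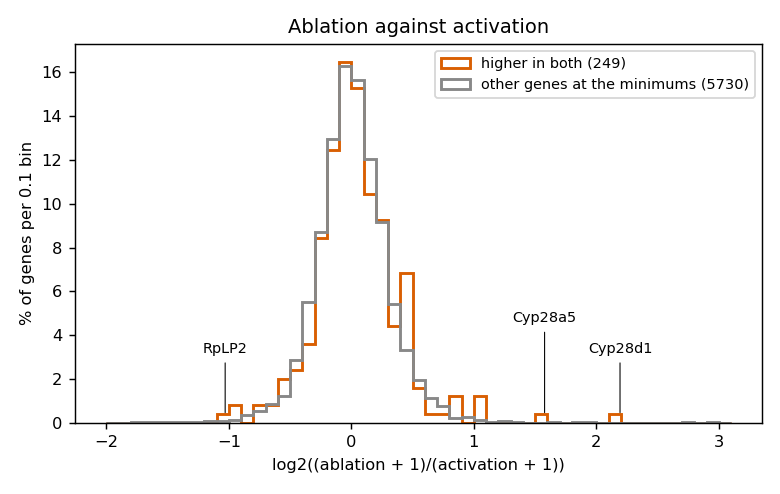
Percentage of genes per bin of 0.1 of log2((ablation + 1)/(activation + 1)), for the 249 genes higher in both manipulations (orange) and the other 5730 genes at the minimums (grey), from gene sums with 1 value per group. Both outlines centre on 0, which the symmetric rule favours, with Cyp28d1 and Cyp28a5 at the right end of the members and RpLP2 at the left end.

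In the comparisons with control, which chose the members, no member transcript was called at q of at most 0.05. Ablation against control had 0 of 302 tested member transcripts called, beside 0.154% of all tested transcripts and 0.0856% as higher. An unadjusted p under 0.05 was found for 13, all higher in ablation, beside 2.05% in either direction and 1.31% as higher. Activation against control had 0 of 300 called, beside 0% of all tested transcripts. The smallest p of this comparison in the authors' deposited table (Cuffdiff) was 5e-05, which 11 transcripts share, lncRNA:CR34335 among them. At that p the q was 0.0537, so no transcript of the comparison could pass 0.05. An unadjusted p under 0.05 was found for 18, all higher in activation, beside 3.05% in either direction and 1.84% as higher. Nothing is read from these counts, because the same contrasts set the rule. With normal p-values from the authors' test statistic 1 member transcript was called in each comparison, lncRNA:CR34335. Over all transcripts so tested, 10 of 10873 were called in ablation and 8 of 11068 in activation. The smallest q of a member in ablation was 0.140 in the authors' deposited table, for the CG10359-RE transcript, at 10.5 FPKM in ablation and 0.000125 FPKM in control. In activation this transcript had 0.000245 FPKM and was not tested, so it was high in ablation only. The other transcript of the gene, RG, had 5.83 FPKM in ablation and 13.4 FPKM in activation, against 5.02 FPKM in control. The q of lncRNA:CR34335 in the authors' deposited table was 0.921 in ablation and 0.0537 in activation. The next smallest q in activation were 0.617 for PIP4K, a lipid kinase, and 0.675 for Mdr65 in the authors' deposited table.

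The rule favours genes with low control values, since a gene at the minimum of 10 FPKM in the manipulations must be low in control to pass the fold. Of 51 genes at the minimums with 1 to 5 FPKM in control 49 were members, 96.1%, and of 370 with 5 to 10 FPKM 87 were, 23.5%. From 10 to 20 FPKM the share was 5.13%, from 20 to 50 FPKM 1.87%, and from 100 FPKM upwards 0.56%. The median control level was 8.84 FPKM in members and 36.6 FPKM in the other genes at the minimums. At the fold threshold CG12817 was just inside, with log2 changes of 1.00 in ablation and 1.49 in activation, and CG17996 just outside with 0.998 in ablation and 1.27 in activation. Just inside the minimum of 10 FPKM was CG34106, with 10.5 FPKM in ablation and 10.1 FPKM in activation, and just outside was CG14253, with 10.8 FPKM in ablation and 9.98 FPKM in activation. At the control minimum the lowest member was CG32544 with 1.37 FPKM, and the nearest gene outside was CG4186 with 0.877 FPKM. A further 108 genes passed both folds and missed the minimum in the manipulations, and 6 missed only that in control.

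**Figure D3:**
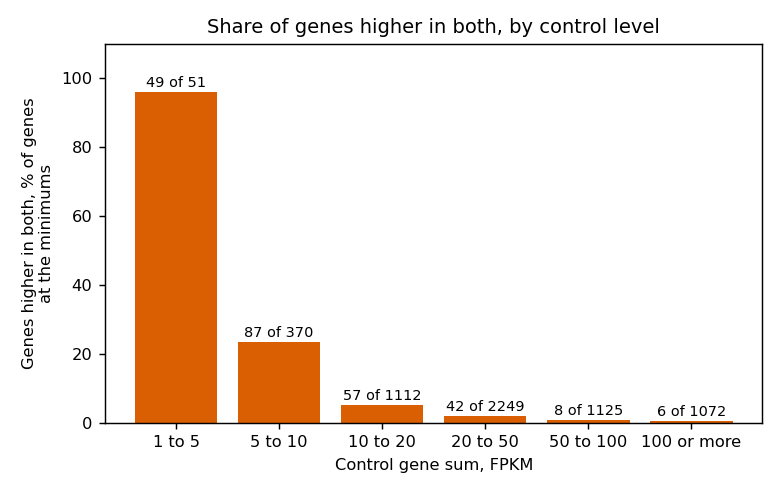
Percentage of genes at the level minimums that were higher in both manipulations, by control gene sum in FPKM, with the counts above the bars. The share is 96.1% at 1 to 5 FPKM in control and 0.56% at 100 FPKM or more.

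By present annotation the members were shorter than other genes of the same control level. The median length of the longest spliced transcript, from the Ensembl annotation of BDGP6, was 1277 bases in 247 members with a length and 2159 bases in 5702 other genes at the minimums. Between 10 and 20 FPKM in control it was 1052 bases in 57 members and 2563 bases in 1055 other genes, and between 20 and 50 FPKM it was 1181 bases in 42 members and 2545 bases in 2207 other genes. A spliced length under 1000 bases was found for 78 members, 31.6%, beside 13.8% of the other genes. Genes past the fold in ablation alone had a median of 1369 bases, and those in activation alone 1772 bases. These lengths come from another build than the FPKM and can exceed the deposited locus. CG13707, for example, has 2106 bases and a dm3 locus on 3L from 4838079 to 4838742. At an equal FPKM a shorter transcript yields fewer fragments, and the part of this in the changes was not tested. Genes with 1 transcript in the tables made up 75.1% of members and 61.6% of the other genes. Between 10 and 20 FPKM in control these shares were 71.9% and 66.5%, a smaller gap. Of the members 246 are protein-coding by the RefSeq names, and 114 have only a CG number as their symbol.

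In 62 members with more than 1 transcript, the sum could hide a switch of transcripts. The transcript with the highest control value was past the fold in both manipulations in 32 of them, in 1 manipulation in 17 and in neither in 13. It was lower than in control in at least 1 manipulation in 10 of the 62, among them CG12118, with log2 changes of -3.29 in ablation and -3.26 in activation. Pur-alpha, a nucleic acid binding protein, had its main control transcript RD at 8.83 FPKM in ablation and 19.0 FPKM in activation, against 21.1 FPKM in control, while RC had 43.9, 13.4 and 0.483 FPKM and RA 6.12, 16.01 and 0.000240 FPKM in the same groups. The mitochondrial fission gene Fis1 had RC at 49.3 FPKM in ablation and 26.2 FPKM in activation, listed at 0 in control, beside RA at 110.03, 83.8 and 57.8 FPKM. Of all members 105 share their deposited locus with at least 1 other gene, 42.2%, beside 35.4% of the other genes, and reads of overlapping genes may be assigned to either.

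Members lay on chromosomes X, 2, 3 and 4. On chromosome 4, 7 of 64 genes at the minimums were members, 10.9%, beside 4.05% on the 5 major arms. Among them were CG31999, the zinc transporter gene Zip102B, Pur-alpha, Slip1, pho and PIP4K. PIP4K had 157.5 FPKM in ablation and 188 FPKM in activation, against 71.9 FPKM in control, and Slip1 had 61.6, 50.3 and 23.3 FPKM in the same groups. Most genes of this small, largely heterochromatic chromosome were above control: 56 of the 64 were above control in ablation and 60 in activation, with median log2 changes of 0.59 and 0.73. On the major arms 52.6% of genes were above control in ablation and 52.7% in activation, with medians of 0.03 in both. The 37 genes at the minimums on heterochromatin scaffolds or unplaced sequence had medians of 0.55 in ablation and 0.71 in activation, and 4 were members, among them rl and Gpa2. In chromosome 4 genes the median spliced length was 3943 bases, so genes of this chromosome were longer than the 2103.5 bases of the major arms. The X, which carries the driver and the yw chromosome, had 32 members among 983 genes, 3.26%.

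**Figure D4:**
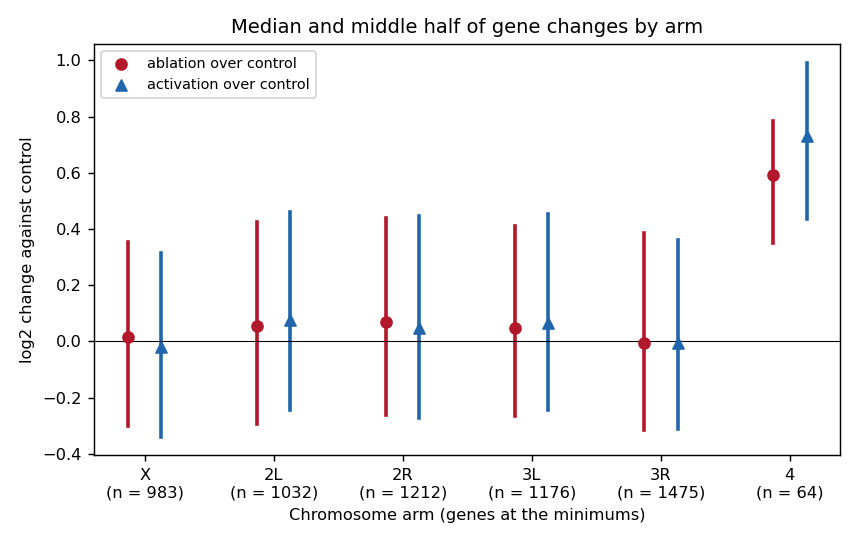
Log2 change of gene sums against control for genes at the level minimums by chromosome arm, with the median (circle for ablation, triangle for activation) and the range between the lower and upper quartiles (bar). Chromosome 4 has medians of 0.59 in ablation and 0.73 in activation, and the medians of the 5 major arms shown lie near 0.

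Members lay beside a member about as often as other genes did, without a test. Of 245 members with a place in the RefSeq gene order, 18 had a member as a neighbour among the genes at the minimums, 7.35%, beside 456 of 5555 other genes, 8.21%. The longest row was of 4 members on 3R, namely CG18731, CG7601, CIA30 and Gnpnat. These had 13.6 to 49.5 FPKM in ablation and 13.3 to 46.8 FPKM in activation, against 5.71 to 18.3 FPKM in control.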

How the data were processed

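RNA of 6 brain pools, 2 per group, was measured. Per the submitters' processing notes, TopHat2, Cufflinks and Cuffdiff were used on genome build dm3, with versions and gene annotation not given in the sources used here. From Cuffdiff, the authors deposited 3 tables with 1 FPKM value per group for 21081 transcripts of 14012 genes, scaled within each table. They also deposited a log2 fold change, a test statistic (a score) and a p-value and q-value over both pools of a group. Activation is called induction in the tables. The q-values recomputed by Benjamini-Hochberg over tested transcripts differed by at most 5.15e-07. The labels do not say that pools came from separate crosses, so p-values may measure technical spread.

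FPKM were summed per CG number. Changes are log2((FPKM + 1)/(FPKM + 1)), which understates changes of low genes. A call is a tested transcript with q of at most 0.05. Of the members 246 were named by RefSeq locus tag, 1 by synonym only and 2 not at all. RefSeq and Ensembl annotations are of another build than dm3 and gave names, gene order and lengths only. Coordinates are the deposited loci in dm3, counted from 1. The members, gene lists and tests were chosen with earlier results of these data known, and the role groups and families after the values were seen. Named genes follow a rule of largest changes, highest control values, calls, list members and gene families, and other genes named were chosen after their values were seen. Of 573 list entries 556 were found. Alternatives were other pseudocounts, minimums, q thresholds, centring, normal p-values, single transcripts and the values of the third table. The adjustment and the rule were tested on simulated data. Promoter and protein sequences were not used here, and some members are not reported here. Scripts ran in Python 3.11.15, with pandas 2.3.3 on numpy 2.4.6, with scipy 1.17.1, and with figures from matplotlib 3.10.9.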

Additional observations from a re-analysis of the deposited data

Results flagged for a closer look

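Cyp28d1, a cytochrome P450 gene, had effects of the manipulations that differed by the authors' direct test, with a log2 fold change of 2.27 for ablation over activation and q = 0.0163 in the authors' deposited table. It had 72.0 FPKM in ablation and 14.6 FPKM in activation, against 4.39 FPKM in control. The table holds 1 value per group, so how many of the 2 pools show this direction cannot be given. Midgut markers, summed over 33 genes, had 1915 FPKM in ablation and 19.1 FPKM in activation, against 16.2 FPKM in control, and their part in the difference was not tested.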

How the results depend on the processing

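Of 249 genes, the count was 99 with a pseudocount of 5, 136 with a minimum of 20 FPKM in the manipulations and 144 for genes alone at their deposited locus (an alternative chosen after seeing the data). The other planned settings gave 192 to 357 genes. Centring on the median gave 201, all among the 249, and the leading control transcript gave 243, of which 218 were. Without chromosome 4, heterochromatin scaffolds and unplaced sequence 238 were left. In ablation against activation, member transcripts called were 0 at q of at most 0.01, 2 at q of at most 0.1 and 2 with normal p-values. With normal p-values 28 of all 11556 transcripts so tested were called there. Against control, 0 became 1 in activation at q of at most 0.1, and 1 in ablation and 1 in activation with normal p-values, settings chosen after seeing the data. The median difference of ablation over activation was -0.00557 after centring and 0.00368 with the leading control transcript. Of 1200 recomputed changes of 100 members, 1070 stayed past the fold, 123 fell below it, 79 of them with a pseudocount of 5, and 7 reversed, all with the leading control transcript: CG7888 in activation (-0.80), and bmm (-0.29 in ablation, -0.017 in activation), CG12118 (-3.29 and -3.26) and Pur-alpha (-1.17 and -0.11) in both. Over all 62 members with more than 1 transcript, that transcript was lower than in control in at least 1 manipulation in 10. That alternative leaves out the other transcripts of a gene by construction, and for the other settings the cause was not tested. Leaving out each replicate could not be run without values per replicate. No paired analysis was possible because the tables hold 1 value per group. The unknown depth limits genes of low control level most.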
